A study of Mus musculus with 28 samples.

Results

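The 10 genes described here are components and targets of bone morphogenetic protein (BMP) signalling, measured in mouse macrophages that were not labelled as treated with BMP. They are the inhibitors of differentiation Id1, Id2 and Id3, the receptor-regulated SMADs Smad1 and Smad5, the inhibitory SMADs Smad6 and Smad7, the ligand Bmp2 and the receptors Bmpr1a and Bmpr2. They were selected by symbol from 33411 gene symbols (36806 genes) present in each of 6 expression tables, after their ratios in the Pnuts hairpin and LPS pairs had been seen. Those ratios are therefore given as a description, without a test, and nothing is read from how they compare with other genes. All 10 genes had an accepted estimate in each of the 28 libraries.

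A BMP ligand binds a pair of type I and type II serine/threonine kinase receptors at the cell surface. The type I receptor phosphorylates SMAD1, SMAD5 and SMAD8, which join SMAD4, enter the nucleus and act on target genes. ID genes are classical direct targets of this signal, and their products bind E proteins and keep them from DNA. SMAD6 and SMAD7 are induced by the same signals and restrain them, so the route carries its own feedback. In macrophages, Id2 and Id3 are best known for roles in the choice and identity of myeloid and tissue-resident cells.

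Primary macrophages were grown from the bone marrow of FVB/Hsd mice and used on day 7, after infection with retroviral vectors and selection with puromycin. The hairpins were aimed at Pnuts (Ppp1r10, a regulatory subunit of protein phosphatase PP1), at Set1a together with Set1b (histone H3 lysine 4 methyltransferases), or at Wdr82, a subunit shared by complexes of both kinds (hairpin sh1137). The control carried a scrambled hairpin in the Pnuts, Set1a+Set1b and DRB sets and the empty vector LMP in the other Wdr82 sets. Cells received LPS (lipopolysaccharide, which macrophages sense through TLR4) at a dose of 10 ng/ml for 45 min, 1 h, 2 h or 4 h, or were untreated. In 1 set all cells received LPS for 45 min, with or without DRB, which blocks the kinase that releases RNA polymerase II into productive elongation.

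In 24 libraries the cells took up 4-thiouridine (4sU) during the last 45 min of culture, so that newly made transcripts could be purified, and 4 libraries held polyA-selected RNA. Each condition had 1 library per set, so a difference between a pair of libraries had no replicate check and no p. Values are FPKM, the number of fragments scaled to transcript length and library size. A ratio was taken within a table as log2((FPKM + 1)/(FPKM + 1)). A gene was counted in a pair when its FPKM reached 1 in either library, and a ratio of at least 2-fold is called higher or lower. The lower and upper bounds that the authors deposited with each FPKM were compared as well, and are called apart when they did not overlap.

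Wdr82 was lower in each of the 10 sh1137 pairs, with log2 ratios from -2.23 to -0.72. Of the other targets, Ppp1r10 went against its label, and Setd1a and Setd1b differed by less than 2-fold. Ppp1r10 had 144 FPKM in the untreated library labelled Pnuts sh against 89.5 FPKM in its control, and 332 FPKM against 203 FPKM after LPS. It was also higher in each of the 10 sh1137 pairs, with log2 ratios from 0.72 to 1.60. Setd1a had 14.8 FPKM in the untreated Set1a+Set1b hairpin library and 16.1 FPKM in its control, and 13.5 FPKM against 18.1 FPKM after LPS. Setd1b had 11.8 FPKM against 11.3 FPKM untreated and 6.70 FPKM against 10.5 FPKM after LPS in the same cells, so both were lower after LPS by less than 2-fold. Tnf was higher after LPS in each of the 14 LPS pairs, with log2 ratios from 3.26 to 8.18. All 9 macrophage markers reached 1 FPKM in all 24 4sU libraries, while erythroid and mast cell markers did so in none and 0 to 4 of 10 stroma markers did. Neutrophil markers did so for 1 to 6 of 8, endothelial markers for 2 to 3 of 5, dendritic cell markers for 2 to 3 of 4 and B and T cell markers for 1 to 3 of 6. The relative depth of the libraries within a set, read from the steps between the lowest FPKM values, differed by 1.59-fold to 3.34-fold.

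Promoter sequence is shown for Id3 and Smad6, the ID gene and the SMAD gene with the lowest untreated hairpin to control ratios in the Pnuts set, and for Id2, the ID gene with the smallest difference there. Each window runs from 250 bases before to 20 bases after the start of the gene in RefSeq (GRCm38.p6), at chr4:136143572-136143841 on the plus strand for Id3, at chr9:64022040-64022309 on the minus strand for Smad6 and at chr12:25096073-25096342 on the minus strand for Id2. Capitals mark exact matches, on either strand, to any of 4 short motifs linked to SMAD binding, which are the palindrome GTCTAGAC, the GC-rich element GGCGCC, its variant GGAGCC and the box GTCTG. The end of the window was set after the sequences had been seen, so that the Smad6 match at the start is complete.
Id3: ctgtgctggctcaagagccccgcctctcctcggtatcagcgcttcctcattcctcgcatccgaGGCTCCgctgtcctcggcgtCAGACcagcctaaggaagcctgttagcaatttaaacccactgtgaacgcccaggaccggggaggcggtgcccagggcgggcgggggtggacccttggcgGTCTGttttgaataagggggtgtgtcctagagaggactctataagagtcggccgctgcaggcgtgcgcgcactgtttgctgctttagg
Smad6: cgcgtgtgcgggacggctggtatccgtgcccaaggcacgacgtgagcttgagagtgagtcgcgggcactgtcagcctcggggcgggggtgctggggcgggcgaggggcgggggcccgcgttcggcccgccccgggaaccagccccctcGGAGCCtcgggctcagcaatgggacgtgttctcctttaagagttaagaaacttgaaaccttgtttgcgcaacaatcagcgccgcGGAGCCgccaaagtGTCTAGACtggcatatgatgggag
Id2: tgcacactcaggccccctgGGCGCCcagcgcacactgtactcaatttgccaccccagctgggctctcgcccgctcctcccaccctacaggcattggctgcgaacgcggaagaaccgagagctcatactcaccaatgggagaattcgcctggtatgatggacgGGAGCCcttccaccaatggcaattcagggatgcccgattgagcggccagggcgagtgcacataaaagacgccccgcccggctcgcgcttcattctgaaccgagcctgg
The palindrome GTCTAGAC occurred in 60 of 32851 RefSeq windows of this length (0.183%), and the Smad6 window held it across the start. GGCGCC was present in 10.4% of windows and in the Id2 window. GGAGCC was present in 27.8% of windows and in all 3 windows shown, at 2 places in that of Smad6. GTCTG was present in 45.4% of windows and at 2 places in that of Id3. No marked matches overlapped one another. Windows were searched for 7 of the 10 members, and none for Id1, Smad7 and Bmp2, so nothing is known here of their motifs. Members whose windows are not shown held matches as well, GGCGCC for Bmpr1a, Bmpr2 and Smad5, and GGAGCC and GTCTG for Smad5. Smad5 had more than 1 window, and the Smad1 window held no match. The motifs and windows were chosen with the ratios known, and a match describes letters and not a bound site.

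The genes themselves differ widely in size. In the mm9 annotation of the tables, Id1 spans 1160 bases on chromosome 2 (152561986 to 152563146), Id2 spans 2292 bases on chromosome 12 (25778665 to 25780957) and Id3 spans 2259 bases on chromosome 4 (135699411 to 135701670). Smad6 spans 68914 bases on chromosome 9, Smad7 28407 bases on chromosome 18 and Bmp2 10727 bases on chromosome 2. Smad1 and Smad5 span 61124 and 39368 bases, and Bmpr1a and Bmpr2 span 92608 and 106223 bases. Bmpr1a shares its interval with another annotated gene, so fragments could have been divided between them.

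In untreated control cells, Id2 was the most abundant of the genes, with 354 to 544 FPKM over the 4 sets of 4sU RNA. Id1 had 46.1 to 178 FPKM and Id3 21.9 to 113 FPKM. Smad7 (15.1 to 59.9 FPKM), Bmpr2 (12.9 to 29.1 FPKM), Smad1 (11.1 to 17.8 FPKM) and Smad5 (9.54 to 22.7 FPKM) overlapped one another. Smad6 had 1.47 to 17.3 FPKM and Bmpr1a 1.01 to 2.47 FPKM, also overlapping. Bmp2 was close to absent, at 0.0256 to 0.250 FPKM. Over these ranges, Id2 alone stood above and Bmp2 alone below all other members. Within each of the 4 libraries, Id2 was followed by Id1, then Id3 and then the other members. Bmpr1a was below all but Bmp2 in each. The deposited bounds of Id1 and Id3 overlapped in each. The tables were normalised separately, so these ranges also hold differences between tables. With the pseudocount, the highest over the lowest untreated control value was 7.40 for Smad6, 5.00 for Id3, 3.80 for Id1 and 3.78 for Smad7, against a median of 1.81 over 10748 genes. A ratio larger than that of Smad6 was found for 4.24% of these genes.

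The untreated library labelled Pnuts sh had lower 4sU RNA from all 3 ID genes and both inhibitory SMADs than scrambled control cells, and higher Bmp2 RNA. After LPS, Id1, both inhibitory SMADs and Bmp2 still passed 2-fold, and Id2 and Id3 did not. The receptor SMADs and the receptors differed by less than 2-fold in both states. Untreated, 5 of the 10 were lower at 2-fold (2.47% of 12812 genes) and 1 was higher (3.36%), with 5.83% of genes in either direction and 0.788% that also had the bounds apart, as 5 members did. After 45 min of LPS, 3 of the 10 were lower (3.84% of 13031 genes) and 1 was higher (6.38%), with 10.2% of genes in either direction and 1.52% that also had the bounds apart, as 2 members did. The median log2 ratio of the 10 genes was -0.57 untreated (0.02 over all genes counted) and -0.06 after LPS (0.09 over all genes counted). In bulk RNA, fewer cells of a type and less RNA per cell cannot be told apart.

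Id3, an E protein antagonist, had 15.9 FPKM in the untreated library labelled Pnuts sh against 113 FPKM in its control, a log2 ratio of -2.76. The deposited bounds were 5.99 to 25.7 FPKM in that library and 59.7 to 167 FPKM in the control, so they were apart. After LPS it had 134.5 FPKM in the library labelled Pnuts sh and 250.2 FPKM in the control, a log2 ratio of -0.89 with overlapping bounds. Id3 was thus below its control in both states, and by less than 2-fold after LPS. Id1, its close relative, had 29.4 FPKM in the untreated library labelled Pnuts sh and 178 FPKM in control cells, a log2 ratio of -2.56. After LPS it had 8.45 FPKM in the library labelled Pnuts sh and 56.0 FPKM in control cells, a log2 ratio of -2.59. The Id1 difference was therefore of similar size in both states, with the bounds apart in each. Id2 had 264 FPKM in the untreated library labelled Pnuts sh and 544 FPKM in control cells, a log2 ratio of -1.04 with overlapping bounds, but 1033 FPKM and 1082 FPKM after LPS, a log2 ratio of -0.07.

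**Figure D1:**
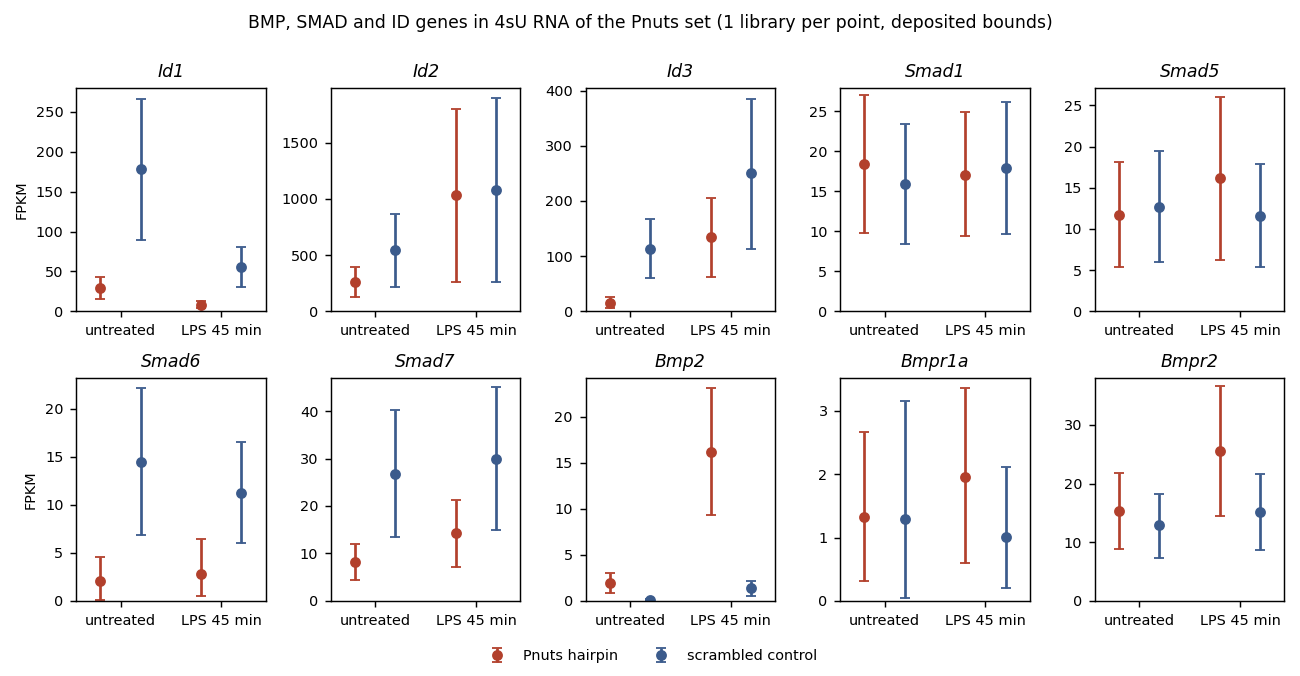
FPKM of the 10 genes (vertical axis, linear, from 0) in the 4 libraries of the Pnuts set, untreated and after 45 min of LPS; each point is 1 library, red for the libraries labelled Pnuts sh and blue for the scrambled control, and bars are the deposited bounds. Id1 lies at 29.4 and 8.45 FPKM in the libraries labelled Pnuts sh against 178 and 56.0 FPKM in control cells, and Bmp2 at 1.94 and 16.2 FPKM against 0.0925 and 1.37 FPKM.

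The inhibitory SMADs followed the ID genes. Smad6, which blocks BMP-activated SMADs, had 2.11 FPKM in the untreated library labelled Pnuts sh against 14.5 FPKM in control cells (log2 ratio -2.31, bounds apart). After LPS it had 2.84 FPKM in the library labelled Pnuts sh against 11.2 FPKM in control cells (log2 ratio -1.67, bounds overlapping). Smad7, which also inhibits TGF-beta receptors, had 8.21 FPKM in the untreated library labelled Pnuts sh against 26.8 FPKM in control cells (log2 ratio -1.59, bounds apart). Its difference was smaller after LPS, with 14.2 FPKM in the library labelled Pnuts sh and 30.0 FPKM in control cells (log2 ratio -1.02, bounds overlapping). Both genes were thus lower in the libraries labelled Pnuts sh in both states.

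Bmp2, the ligand, went the other way. It had 1.94 FPKM in the untreated library labelled Pnuts sh and 0.0925 FPKM in control cells, a log2 ratio of 1.43, and 16.2 FPKM and 1.37 FPKM after LPS, a log2 ratio of 2.86. The bounds were apart in both states (9.34 to 23.1 FPKM against 0.553 to 2.18 FPKM after LPS), and the library labelled Pnuts sh after LPS held the highest Bmp2 value of all 28. The receptor SMADs, which carry the signal to the nucleus, were near their controls. Smad1 had 18.4 FPKM in the untreated library labelled Pnuts sh and 15.9 FPKM in control cells, and Smad5 had 11.7 FPKM and 12.7 FPKM. Bmpr2, the type II receptor, had 25.6 FPKM after LPS in the library labelled Pnuts sh and 15.1 FPKM in control cells, a log2 ratio of 0.72, and Bmpr1a, a type I receptor, stayed between 1.00 and 1.95 FPKM in the 4 libraries of the set.

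Other genes moved in the same libraries. The summed FPKM of the 9 macrophage markers was 7166 in the untreated library labelled Pnuts sh and 3382 in control cells, and 9727 against 5093 after LPS. Lyz2, lysozyme of myeloid cells, made up most of this, with 6042 FPKM in the untreated library labelled Pnuts sh against 2017 FPKM in control cells. Mrc1, the mannose receptor, had 52.4 FPKM against 13.8 FPKM. The other 7 markers differed by less than 2-fold, and the median log2 ratio of the 9 was -0.06. Neutrophil markers reached 1 FPKM for 2 of 8 genes in the untreated library labelled Pnuts sh and 5 of 8 in control cells, with sums of 10.9 and 24.1 FPKM and Ly6g at 0 in both. Endothelial markers had sums of 25.8 FPKM in the untreated library labelled Pnuts sh and 15.9 FPKM in control cells, with Tek and Emcn at 0 in both. After LPS the neutrophil sums were 6.99 FPKM in the library labelled Pnuts sh and 29.0 FPKM in control cells, and the endothelial sums were 34.7 FPKM and 14.4 FPKM. Stroma marker sums were 9.45 FPKM in the untreated library labelled Pnuts sh and 17.9 FPKM in control cells, the highest of the 24 4sU libraries. After LPS the stroma sums were 13.6 FPKM in the library labelled Pnuts sh and 16.1 FPKM in control cells. The part of these differences in the results for the 10 genes was not tested.

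After LPS, Id1 was lower throughout in 4sU RNA, Id2 and Id3 were higher at the earliest times, and Bmp2 was higher. Smad6 and Smad7 were lower at 2 h and 4 h of the unstranded 4sU set. Over the 7 LPS pairs of hairpin cells, 20 of the 66 counted gene-by-pair ratios passed 2-fold, beside 16.5% of all gene-by-pair ratios. Of these, 9 were higher (10.9% of all ratios), 11 were lower (5.67%) and 7 also had the bounds apart (2.07%). Over the 7 pairs of control cells, 21 of 63 passed, beside 15.5% of all ratios. Of these, 10 were higher (9.96%), 11 were lower (5.58%) and 8 also had the bounds apart (1.85%). The 3 LPS times of the unstranded set share 1 untreated library per vector, so these pairs are not independent.

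**Figure D2:**
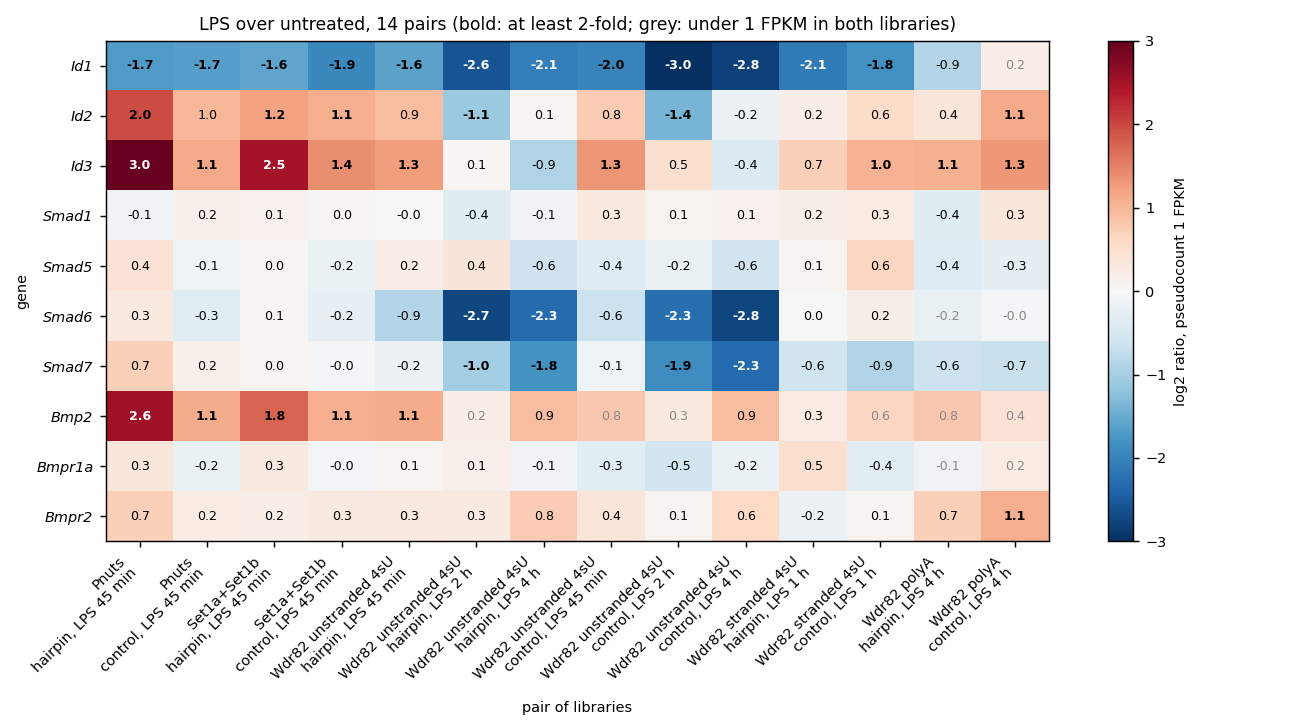
Log2 ratio of LPS over untreated FPKM (colour and number, pseudocount 1 FPKM) for the 10 genes (rows) in 14 pairs of libraries (columns), hairpin pairs left of control pairs within a set; bold marks at least 2-fold and grey values are under 1 FPKM in both libraries. The Id1 row is between -3.02 and -1.57 in the 12 4sU pairs. Smad6 and Smad7 pass 2-fold at 2 h and 4 h of the unstranded 4sU set, and not in polyA RNA at 4 h.

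Id1 was lower after LPS in each 4sU pair. In the Pnuts set it had 8.45 FPKM after 45 min of LPS against 29.4 FPKM untreated in the libraries labelled Pnuts sh, and 56.0 FPKM against 178 FPKM in control cells. In the Set1a+Set1b set it had 9.69 FPKM after LPS against 30.8 FPKM untreated in hairpin cells, and 11.4 FPKM against 46.1 FPKM in control cells. In the stranded Wdr82 set it had 14.6 FPKM after 1 h of LPS against 66.5 FPKM untreated in hairpin cells, and 47.4 FPKM against 170 FPKM in control cells. Log2 ratios ran from -1.57 to -3.02 over the 12 4sU pairs, and the bounds were apart in all 6 pairs of these stranded sets. In the unstranded time course Id1 had 80.1, 25.5, 12.6 and 18.2 FPKM in sh1137 cells, and 123, 30.1, 14.2 and 16.8 FPKM in control cells, untreated and after 45 min, 2 h and 4 h. The lowest value of both vectors was at 2 h.

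In 4sU RNA, Id3 was higher after 45 min to 1 h of LPS and below its untreated value at 4 h. It had 134.5 FPKM after LPS against 15.9 FPKM untreated in the libraries labelled Pnuts sh, and 250.2 FPKM against 113 FPKM in their control. It had 35.3 FPKM after LPS against 5.45 FPKM untreated in Set1a+Set1b hairpin cells, and 58.9 FPKM against 21.9 FPKM in their control. The log2 ratio of LPS over untreated was 3.01 in the libraries labelled Pnuts sh and 1.14 in control cells, a difference of 1.87 where the median difference over 12405 genes was 0.06. In the Set1a+Set1b set it was 2.49 in hairpin cells and 1.39 in control cells, a difference of 1.11. These differences were not tested, and in both sets the hairpin library was the lower one before and after LPS. In sh1137 cells the difference had the other sign, between -0.50 and -0.07 over the 3 LPS times of the unstranded set, and was -0.31 in the stranded set. The unstranded time course gave 63.3, 153, 66.3 and 33.3 FPKM in sh1137 cells and 75.8, 192, 105 and 56.9 FPKM in control cells.

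Id2 was also higher early, but then lower at 2 h. It had 1033 FPKM after LPS against 264 FPKM untreated in the libraries labelled Pnuts sh (log2 ratio 1.97), and 1082 FPKM against 544 FPKM in control cells (log2 ratio 0.99). It had 1376 FPKM after LPS against 593 FPKM untreated in Set1a+Set1b hairpin cells (log2 ratio 1.21), and 1031 FPKM against 481 FPKM in control cells (log2 ratio 1.10). The bounds overlapped in all 4 of these pairs. In the unstranded time course Id2 had 387, 742, 178 and 403 FPKM in sh1137 cells and 354, 597, 135 and 315 FPKM in control cells. Both vectors thus passed through a peak at 45 min and a trough at 2 h, where the log2 ratios to untreated cells were -1.12 in sh1137 cells and -1.39 in control cells. In the stranded set, after 1 h of LPS, it had 543 FPKM against 472 FPKM untreated in sh1137 cells and 686 FPKM against 468 FPKM in control cells.

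**Figure D3:**
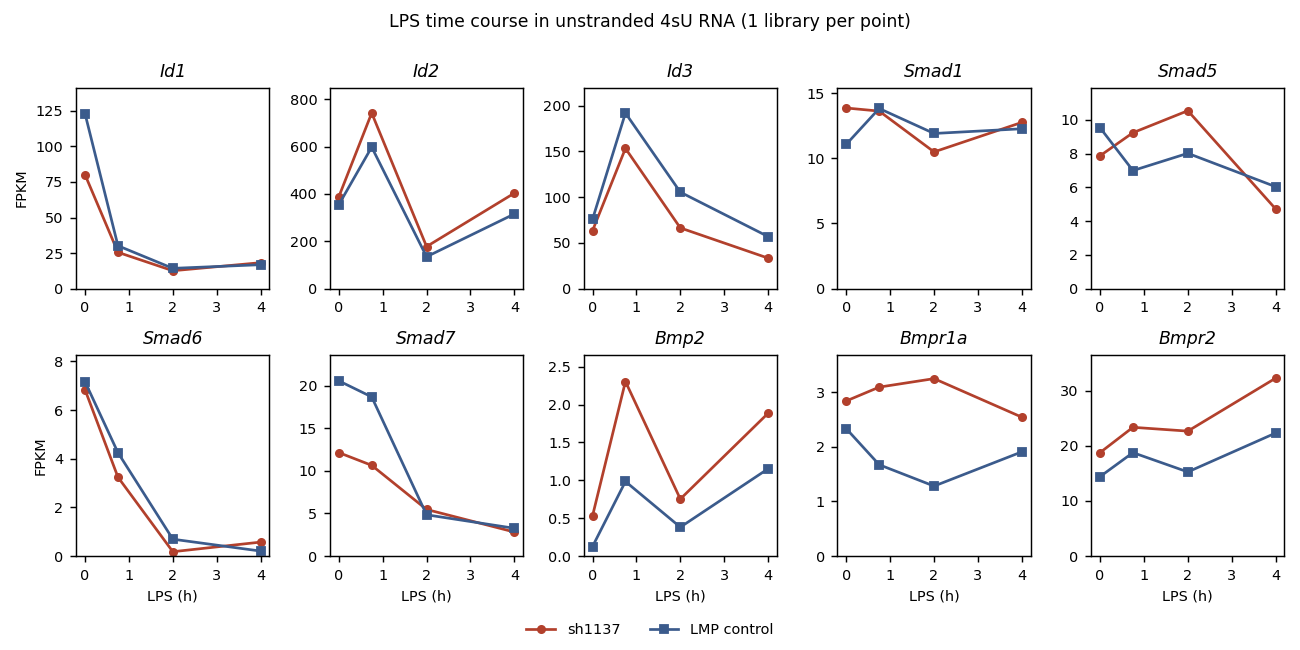
FPKM of the 10 genes (vertical axis, linear, from 0) against hours of LPS (horizontal axis, 0 is untreated) in the unstranded 4sU set; circles are sh1137 cells and squares LMP control cells, 1 library per point. Id3 reaches 153 FPKM in sh1137 cells and 192 FPKM in control cells at 45 min, and Smad7 ends at 2.82 and 3.26 FPKM at 4 h.

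Smad6 and Smad7 differed by less than 2-fold early after LPS and were lower later in the unstranded 4sU set. Smad6 had 6.83, 3.24, 0.178 and 0.573 FPKM in sh1137 cells and 7.16, 4.25, 0.692 and 0.204 FPKM in control cells, untreated and after 45 min, 2 h and 4 h. Smad7 had 12.2, 10.7, 5.47 and 2.82 FPKM in sh1137 cells and 20.6, 18.7, 4.85 and 3.26 FPKM in control cells at the same times. At 2 h and 4 h of this set both genes passed 2-fold in both vectors. The deposited bounds were apart in 1 of these 8 pairs, that of Smad6 in control cells at 4 h. At 45 min or 1 h in the other sets, their log2 ratios lay between -0.91 and 0.73. Smad1 and Smad5 passed 2-fold in none of the 14 LPS pairs.

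Bmp2 was above its untreated value in all 14 LPS pairs, including some under 1 FPKM in both libraries, and passed 2-fold in 5. It had 16.2 FPKM after LPS against 1.94 FPKM untreated in the libraries labelled Pnuts sh (log2 ratio 2.55), and 1.37 FPKM against 0.0925 FPKM in control cells (log2 ratio 1.12). It had 5.91 FPKM after LPS against 1.05 FPKM untreated in Set1a+Set1b hairpin cells (log2 ratio 1.75), and 1.67 FPKM against 0.250 FPKM in control cells (log2 ratio 1.10). These 4 pairs had the bounds apart. In the unstranded time course it had 0.530, 2.30, 0.752 and 1.89 FPKM in sh1137 cells and 0.126, 0.984, 0.381 and 1.15 FPKM in control cells, so the value was higher at 45 min and 4 h than at 2 h in both vectors. Bmpr2 had 32.2 FPKM at 4 h against 18.7 FPKM untreated in sh1137 cells, and 22.3 FPKM against 14.4 FPKM in control cells, both under 2-fold. Bmpr1a stayed between 0.898 and 5.45 FPKM in all 24 4sU libraries.

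With the Set1a+Set1b hairpins, Id3 was lower and Bmp2 higher, as with the Pnuts hairpin, and the other members differed by less than 2-fold. These were 2 of 20 gene-by-pair ratios, beside 5.09% of all. Id3 had 5.45 FPKM in untreated hairpin cells against 21.9 FPKM in control cells (log2 ratio -1.83, bounds apart) and 35.3 FPKM against 58.9 FPKM after LPS (log2 ratio -0.72). Bmp2 had 1.05 FPKM in untreated hairpin cells against 0.250 FPKM in control cells (log2 ratio 0.71) and 5.91 FPKM against 1.67 FPKM after LPS (log2 ratio 1.37, bounds apart). Id3 was thus called in the untreated pair and Bmp2 in the LPS pair. Id1 had 30.8 FPKM in untreated hairpin cells and 46.1 FPKM in control cells, and 9.69 FPKM and 11.4 FPKM after LPS. Smad7 had 10.6 FPKM and 15.1 FPKM untreated, and 10.99 FPKM and 14.7 FPKM after LPS. The Id1 and Smad7 values lay below their controls in both states by less than 2-fold. Smad6 was at 0.984 FPKM in untreated hairpin cells and 1.47 FPKM in control cells, near the limit for counting it. The summed macrophage markers were 5747 FPKM in untreated hairpin cells and 3385 FPKM in control cells, carried by Lyz2 at 4569 FPKM against 1927 FPKM. Of the other markers, Fcgr1 was past 2-fold lower (21.8 FPKM against 46.9 FPKM), and the median log2 ratio of the 9 was -0.12. Neutrophil marker sums were 33.2 FPKM in untreated hairpin cells and 7.88 FPKM in control cells, and 39.1 FPKM and 11.4 FPKM after LPS. Dendritic cell marker sums were 123 FPKM in untreated hairpin cells and 52.3 FPKM in control cells, and 354 FPKM and 141 FPKM after LPS. The part of these markers in the result was not tested.

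**Figure D4:**
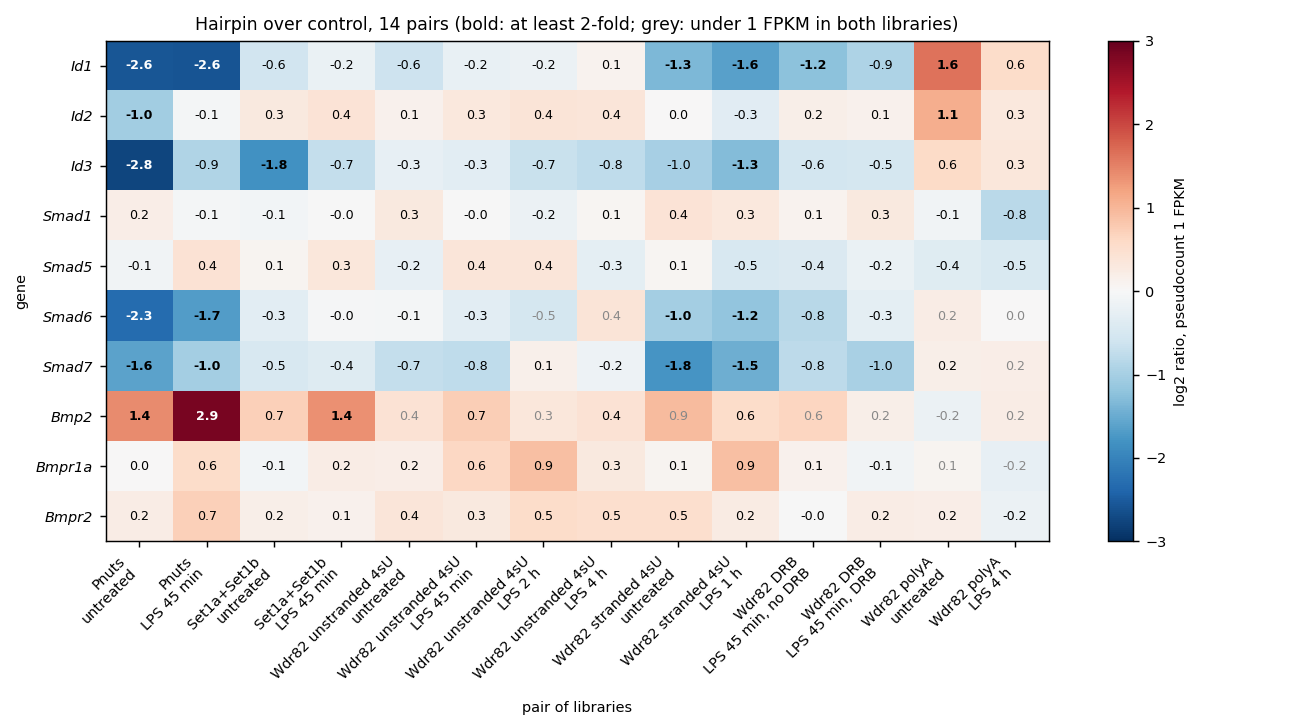
Log2 ratio of hairpin over control FPKM (colour and number, pseudocount 1 FPKM) for the 10 genes (rows) in 14 pairs of libraries (columns); bold marks at least 2-fold and grey values are under 1 FPKM in both libraries. Id3 is at or below -0.26 and Bmp2 at or above 0.18 in all 12 4sU pairs, while Id1 is 1.62 in untreated polyA RNA.

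Depletion of Wdr82 with sh1137 gave sets that differed among themselves. Of 86 gene-by-pair ratios over 10 pairs, 10 passed 2-fold, beside 8.44% of all ratios. Of these, 8 were lower (3.02% of all ratios), 2 were higher (5.42%) and 4 also had the bounds apart (0.822%). The stranded 4sU set gave 7 of the 10, 3 untreated (9.86% of all genes) and 4 after LPS (11.6%), and untreated polyA RNA gave 2 (5.39%). In the stranded set, Smad7 had 16.8 FPKM in untreated sh1137 cells against 59.9 FPKM in control cells (log2 ratio -1.77) and 10.7 FPKM against 31.3 FPKM after 1 h of LPS (log2 ratio -1.47). Id1 had 66.5 FPKM in untreated sh1137 cells against 170 FPKM in control cells (log2 ratio -1.34) and 14.6 FPKM against 47.4 FPKM after LPS (log2 ratio -1.63). The bounds of Smad7 and Id1 were apart in both states. Smad6 had 8.04 FPKM in untreated sh1137 cells against 17.3 FPKM in control cells and 8.08 FPKM against 19.6 FPKM after LPS, with overlapping bounds. Id3 had 51.8 FPKM in untreated sh1137 cells against 104 FPKM in control cells (log2 ratio -0.996, just under 2-fold) and 86.4 FPKM against 215 FPKM after LPS (log2 ratio -1.31). In the same libraries the macrophage marker Mrc1 had 145 FPKM in untreated sh1137 cells against 19.1 FPKM in control cells, and 136 FPKM against 20.6 FPKM after LPS. Fcgr1 had 11.9 FPKM against 29.9 FPKM untreated, and the other 7 macrophage markers differed by less than 2-fold in both states. The part of these markers in the result was not tested.

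In the set with DRB, without the inhibitor, Id1 had 31.2 FPKM in sh1137 cells against 75.1 FPKM in scrambled control cells (log2 ratio -1.24), and no other member passed (5.26% of all genes). In the unstranded set no member passed 2-fold at any of the 4 times, where 6.70% of all genes passed untreated, 10.7% at 45 min, 9.46% at 2 h and 9.70% at 4 h. Taken over all 8 4sU pairs, Id3 was lower in sh1137 cells in 8 pairs (median log2 ratio -0.61), and Id1, Smad6 and Smad7 in 7 each. Bmp2 was higher in 8 pairs (median log2 ratio 0.50), from levels of at most 2.30 FPKM, and Id2, Bmpr1a and Bmpr2 were higher in 7 each. In most of the Bmp2 pairs both libraries were under 1 FPKM, as they were for Smad6 at 2 h and 4 h of the unstranded set. The share of all genes with so many pairs in the same direction was not computed, and nothing is read from these numbers of pairs.

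The unstranded set allowed a test, since it held 4 pairs. A limma fit of log2(FPKM + 1) with hairpin and time called 1554 of 15546 genes at an adjusted p under 0.05 (10.0%), 833 higher (5.36%) and 721 lower (4.64%). Bmp2 was higher in sh1137 cells by 0.49 (SE 0.10, adjusted p = 0.0491 by limma) and Bmpr2 by 0.43 (SE 0.09, adjusted p = 0.0489 by limma), each in 4 of 4 pairs. The limma adjusted p of Bmp2 ran from 0.0433 to 0.722 and that of Bmpr2 from 0.0337 to 0.585 over the other settings tried, and both calls were lost when any 1 time was left out. The error here is the spread between times, and separate transductions per time are not stated. Id3 was lower by 0.50 on the log2 scale in 4 of 4 pairs (estimate -0.50, SE 0.12) and missed the threshold (adjusted p = 0.0662 by limma). Id2 (0.30, adjusted p = 0.0973), Bmpr1a (0.50, adjusted p = 0.0913) and Smad7 (-0.37, adjusted p = 0.239) also missed it in the same limma fit. For Id1, Smad1, Smad5 and Smad6 the limma adjusted p was between 0.318 and 0.881.

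With DRB, given with 45 min of LPS, the 3 ID genes and Smad7 were lower by at least 2-fold in both vectors. Bmpr2 passed 2-fold higher in sh1137 cells only and Smad5 passed 2-fold lower in control cells only. Of 18 gene-by-pair ratios, 10 passed 2-fold, beside 30.4% of all ratios. Of these, 9 were lower (15.6% of all ratios), 1 was higher (14.9%) and 3 also had the bounds apart (3.26%). Id3 had 18.4 FPKM with DRB against 125 FPKM without in sh1137 cells (log2 ratio -2.70), and 26.8 FPKM against 184 FPKM in scrambled control cells (log2 ratio -2.73). Id1 had 6.14 FPKM with DRB against 31.2 FPKM without in sh1137 cells, and 12.6 FPKM against 75.1 FPKM in control cells. Id2 had 167 FPKM with DRB against 761 FPKM without in sh1137 cells, and 152 FPKM against 678 FPKM in control cells. All 3 ID genes were lower by a log2 ratio of -2.15 or beyond in both vectors.

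Smad7 had 3.50 FPKM with DRB against 17.1 FPKM without in sh1137 cells, and 7.75 FPKM against 30.3 FPKM in control cells. Smad6, in contrast, had 7.30 FPKM with DRB against 6.27 FPKM without in sh1137 cells, and 9.14 FPKM against 12.0 FPKM in control cells. The inhibitory SMADs therefore differed from each other. Bmpr2 had 33.4 FPKM with DRB against 13.6 FPKM without in sh1137 cells (log2 ratio 1.24), and 28.6 FPKM against 13.8 FPKM in control cells (log2 ratio 0.995, just under 2-fold). Bmpr1a had 4.54 FPKM with DRB against 5.45 FPKM without in sh1137 cells, and 4.96 FPKM against 4.88 FPKM in control cells. Smad1 had 9.55 FPKM against 15.3 FPKM in sh1137 cells and 7.63 FPKM against 14.2 FPKM in control cells, and Smad5 passed 2-fold in control cells, with 4.53 FPKM against 11.8 FPKM. The median log2 ratio over all genes counted was 0.18 in sh1137 cells and 0.16 in control cells. The summed macrophage markers were 5979 FPKM with DRB against 3234 FPKM without in sh1137 cells, and 6515 FPKM against 3386 FPKM in control cells. FPKM is scaled to library size, so a higher value with DRB is a larger share of the RNA sequenced and need not be more new RNA.

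**Figure D5:**
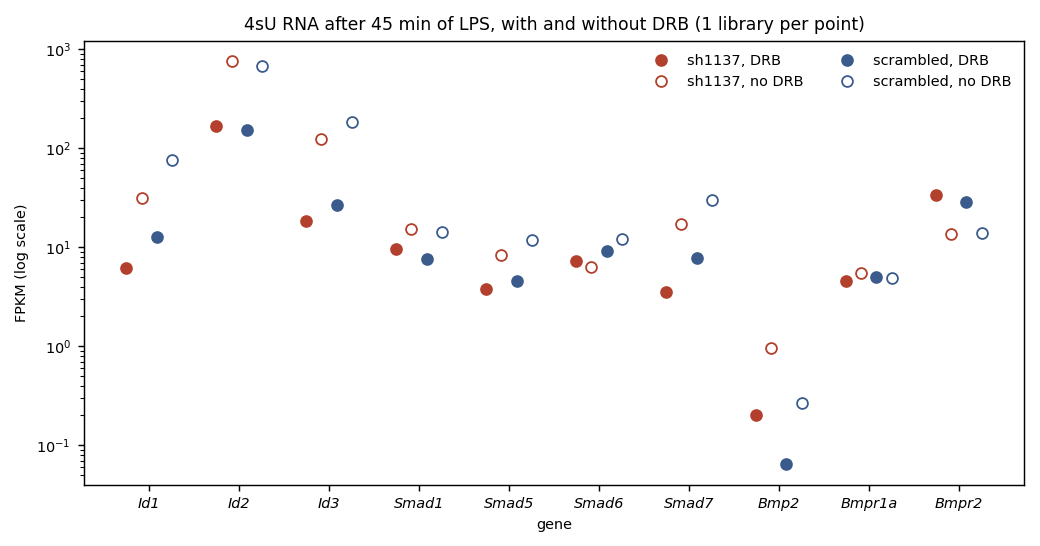
FPKM (vertical axis, log scale) of the 10 genes after 45 min of LPS with DRB (filled) and without DRB (open), in sh1137 cells (red) and scrambled control cells (blue); each point is 1 library. Id3 lies at 18.4 against 125 FPKM in sh1137 cells and 26.8 against 184 FPKM in control cells, and Bmpr2 at 33.4 against 13.6 FPKM and 28.6 against 13.8 FPKM.

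In polyA RNA, Id2 remained well measured and most other members were close to 1 FPKM or under it. Id2 had 71.7 FPKM in untreated sh1137 cells against 33.1 FPKM in control cells (log2 ratio 1.09), and 92.3 FPKM against 73.6 FPKM after 4 h of LPS. Id1 had 2.83 FPKM in untreated sh1137 cells against 0.242 FPKM in control cells (log2 ratio 1.62, bounds overlapping), and 1.10 FPKM against 0.425 FPKM after LPS. Id3 had 4.53 FPKM after LPS against 1.63 FPKM untreated in sh1137 cells, and 3.35 FPKM against 0.756 FPKM in control cells. The 3 ID genes were thus above their controls in sh1137 cells in both states, with Id1 and Id2 past 2-fold when untreated. Smad6 stayed at or under 0.394 FPKM and Smad7 at or under 1.27 FPKM. Bmpr2 had 17.3 FPKM after LPS against 10.1 FPKM untreated in sh1137 cells, and 19.7 FPKM against 8.69 FPKM in control cells (log2 ratio 1.09). Smad1 was between 5.64 and 10.6 FPKM and Smad5 between 2.17 and 4.33 FPKM in the 4 polyA libraries. Macrophage markers moved in these pairs as well, and 3 of 9 were past 2-fold lower in untreated sh1137 cells. Csf1r had 372 FPKM in untreated sh1137 cells against 1062 FPKM in control cells, Emr1 299 FPKM against 662 FPKM and Fcgr1 46.7 FPKM against 156 FPKM. Lyz2 was listed at 0 in both untreated libraries and in the control library after LPS. B and T cell marker sums were 38.9 FPKM in untreated sh1137 cells and 115 FPKM in control cells, and the part of these markers in the result was not tested.

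Another 53 genes of the BMP and TGF-beta route were examined. In the Pnuts set, 30 were counted untreated, with 0 higher and 1 lower (5.83% of all genes in either direction), and 31 after LPS, with 1 higher and 3 lower (10.2% of all genes), so the list was near the share of all genes. Pmepa1, a membrane protein that restrains TGF-beta signalling, had 1.78 FPKM in the untreated library labelled Pnuts sh against 6.59 FPKM in control cells, and 1.97 FPKM against 10.6 FPKM after LPS. Tob1, an antiproliferative protein that binds SMADs, had 12.8 FPKM in the library labelled Pnuts sh after LPS against 4.45 FPKM in control cells, with the bounds apart. With the Set1a+Set1b hairpins it had 13.4 FPKM against 5.75 FPKM untreated and 12.1 FPKM against 5.50 FPKM after LPS, the 1 listed gene that passed there in each state (4.24% and 5.94% of all genes). Among 34 listed genes tested by limma in the unstranded set, Neo1 (0.59, adjusted p = 0.0247) and Acvr2b (0.82, adjusted p = 0.0320) were higher and Pmepa1 (-0.84, adjusted p = 0.0483) and Acvrl1 (-0.82, adjusted p = 0.0490) lower in sh1137 cells. These were 4 of 34, beside 10.0% of all genes tested, and limma called none of them when any 1 time was left out, without the time factor or without the filter on low values.

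After LPS, the listed genes that passed in control cells included SMAD corepressors. At 45 min, Skil and Tgif1 were higher in the control cells of each of the Pnuts, Set1a+Set1b and unstranded sets. No listed gene was lower there, where 2.87% to 3.99% of all genes were lower and 5.22% to 5.53% higher. The absence of lower genes is not read as a result about the list. Skil, the SnoN corepressor, had 395 FPKM after LPS against 80.8 FPKM untreated in Pnuts set control cells, and 456 FPKM against 59.3 FPKM in Set1a+Set1b set control cells. The Skil bounds overlapped in each of these sets. Tgif1, another SMAD corepressor, had 319 FPKM after LPS against 122 FPKM untreated in Pnuts set control cells, with overlapping bounds. By 4 h in the unstranded set, 8 listed genes were higher and 3 lower in control cells, beside 30.7% of 13951 genes in either direction. Only listed genes that reached 1 FPKM could be counted, and the list is not read as differing from that share. Inhba, the activin A subunit, had 14.9 FPKM at 4 h against 0.251 FPKM untreated, and Eng, the endoglin co-receptor, had 71.8 FPKM against 10.6 FPKM. Ski, another corepressor, had 4.99 FPKM at 4 h against 33.3 FPKM untreated. The bounds of Inhba were apart, and those of Eng and Ski overlapped. In polyA RNA at 4 h, the type I receptor Acvr1 had 35.3 FPKM against 8.06 FPKM and Tgfbr1 had 4.13 FPKM against 20.1 FPKM untreated in control cells. The bounds overlapped for both receptors.

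Across the 28 libraries, after centring each gene on its table, the genes whose pattern was most like that of Id1 among 7170 compared were Nup43 (Pearson r = 0.90), Tk1 (0.84) and Drg2 (0.84). Those most like Id2 were Tgif1 (0.90), Osm (0.90) and Fam46c (0.88). Those most like Id3 were Ccrn4l (0.88), Mki67 (0.88) and G3bp1 (0.88). For Smad6 the most similar were Dna2 (0.87), Rap2a (0.84) and Extl3 (0.83), and for Smad7 they were Hmgn2 (0.89), Orc6 (0.88) and Nop56 (0.88). For Bmp2 they were Dmxl1 (0.90), Sdcbp (0.87) and Sub1 (0.84), and for Bmpr2 Adam9 (0.93), Bbx (0.93) and Nf1 (0.92). Among the members, Smad6 with Smad7 gave 0.77, Id1 with Smad7 0.75, Id2 with Id3 0.73, Id1 with Smad6 0.70 and Id1 with Bmp2 -0.64. These correlations describe libraries that share tables and controls and differ in depth, and they have no p. Mki67, a proliferation marker, had 70.3 FPKM in the untreated library labelled Pnuts sh and 138.5 FPKM in control cells, and 172 FPKM and 199 FPKM after LPS. Tk1, a thymidine kinase of dividing cells, had 51.8 FPKM against 86.6 FPKM untreated and 26.2 FPKM against 38.6 FPKM after LPS in the same cells. The part of such differences in the values of the ID genes was not tested.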

How the data were processed

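RNA of 28 libraries was sequenced (24 of 4sU RNA, 4 of polyA RNA). Per the submitters' processing notes, the authors used TopHat 1.3.1, Cufflinks 2.1.1 and Cuffdiff 2.1.1 with mm9. The deposited tables give, per the file headers, FPKM per gene with a lower and an upper bound and a status. For the annotation, how libraries were scaled and which level the bounds have, nothing is given in the sources used here. No read counts were used and absolute depth is unknown, so no counting intervals were computed.

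The entry with the highest mean FPKM was taken per symbol. Ratios used a pseudocount of 1 FPKM within a table, and 30 pairs were compared. The limma fit (limma 3.58.1, R 4.3.3, Benjamini-Hochberg adjustment, 3 residual degrees of freedom) used the 8 unstranded 4sU libraries, and genes with FPKM of at least 1 in 1 or more of them. Both procedures were run on simulated data with independent noise and with changes placed in genes of at least 5 FPKM. Members with lower FPKM are not covered by that setting, and no support is drawn from it. Tables were handled with Python 3.11.15 and pandas 2.3.3. The members, gene lists, tests and motifs were chosen with earlier results of these data known. Named pathway genes were those at 2-fold with at least 5 FPKM in the higher library of the Pnuts and Set1a+Set1b pairs and of the LPS pairs of control cells, at most 4 per comparison by size, beside those called by limma, which were named after their values were seen. The values of 1 gene that this rule names are not reported here. For likeness, the 3 highest correlations were taken among genes with at least 5 FPKM in 1 library of every table.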

Additional observations from a re-analysis of the deposited data

Results flagged for a closer look

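Id1 was higher with sh1137 in untreated polyA RNA (log2 ratio 1.62) and lower in stranded 4sU RNA after 1 h of LPS (log2 ratio -1.63), a difference of 3.26 between groups under the same contrast. The polyA values were 2.83 FPKM in sh1137 cells and 0.242 FPKM in control cells, with overlapping bounds. Id2 in control cells was higher after 4 h of LPS in polyA RNA (1.13) and lower after 2 h in unstranded 4sU RNA (-1.39), a difference of 2.52. Id2 in hairpin cells was higher after 45 min of LPS in the Pnuts set (1.97) and lower after 2 h in the unstranded set (-1.12), a difference of 3.09. These differences were not tested. For Id1, and for Id2 in control cells, the kind of RNA, the LPS time and the set differ together and cannot be told apart. For Id2 in hairpin cells both pairs are 4sU RNA, and the LPS time, the set and the hairpin target differ. Within the unstranded set, the Id2 ratio in sh1137 cells was 0.94 after 45 min and -1.12 after 2 h.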

How the results depend on the processing

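The counts of members at 2-fold moved by less than 1.5 times under each setting tried except the following. With the deposited bounds apart as well, the count was 4 for sh1137 (10 as reported), 8 for LPS in control cells (21), 7 for LPS in hairpin cells (20), 3 for DRB (10) and 2 for the Pnuts pair after LPS (4). At 1.5-fold it was 4 for Set1a+Set1b (2), 25 for sh1137 and 33 for LPS in hairpin cells. With a pseudocount of 0.1 FPKM it was 19 for sh1137. Without the 2 h and 4 h pairs, a setting added after seeing the data, it was 11 for LPS in control cells and 12 in hairpin cells. That setting drops pairs, and with them ratios that could pass. The lower count is therefore not read as dependence on the late times. Among single ratios of a member in a pair, 18 newly passed 2-fold with a pseudocount of 0.1 FPKM, and with ratios centred on the median gene 3 newly passed and 4 no longer did. No called ratio changed sign, but a pseudocount cannot change a sign, and the centring shifts were small beside a 2-fold ratio. The unchanged signs are therefore no check of the results.

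The limma count for sh1137, 1554 of 15546 genes, was 116 without a filter on low values, 40 without the time factor, and 0 to 1 when 1 time was left out, where 3711 to 4368 genes had an unadjusted p under 0.05. The cause was not tested, beyond the smaller number of residual degrees of freedom with a time left out (2 in place of 3). Bmp2 kept its call in limma at a pseudocount of 0.1 FPKM and Bmpr2 with a minimum of 5 FPKM, and each lost it in the other settings in which it was tested. The time factor pairs hairpin and control libraries by LPS time in that fit. Beyond it, no paired analysis was possible because the labels give no replicate numbers and each condition has 1 library. Low FPKM limits Bmp2, Bmpr1a and Smad6 most.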
